A study of Mus musculus with 16 samples.

Results

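The 28 genes described here are the cholesterol synthesis and SREBP2 pathway, chosen by name: 8 genes of the mevalonate arm, 12 of the squalene and sterol arm, 4 of SREBP2 control and 4 of sterol transport and removal. They were followed among the 55335 genes of a count table from whole hippocampus of 16 female mice aged 10 months. All 28 were among the 16475 genes with enough reads to be tested. The 3xTg mouse is a model of Alzheimer's disease in which human APP and tau transgenes are driven by a Thy1 regulatory element active in neurons. WT mice were of the strain C57BL/6J x 129S1, so that the transgenes and the rest of the strain background cannot be told apart.

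Cells make cholesterol from acetyl-CoA through the mevalonate arm, in which acetyl groups are joined and carried on to farnesyl diphosphate, and then through squalene and a series of sterol intermediates. The transcription factor SREBP2, encoded by Srebf2, switches on the genes of these enzymes when sterols are low: Scap escorts it from the endoplasmic reticulum for cleavage, and Insig1 and Insig2 hold the pair back when sterols are plentiful. The adult brain makes its own cholesterol, mostly in glia, carries it within cells through proteins such as Stard4, Npc1 and Npc2, and removes the excess from neurons through the hydroxylase Cyp46a1.

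Each mouse received an infusion into a brain ventricle for 28 days from a pump delivering 0.11 µl per hour. The pump held artificial cerebrospinal fluid with 0.8% DMSO, alone or with 80 µM of an inhibitor of stearoyl-CoA desaturase (SCD), the enzyme that makes monounsaturated fatty acids; the treatment labels name the Cayman compound (CAY10566 in the study's methods), whereas the treatment protocol shared by all samples names the product ab142089. The 4 groups, with 4 mice each, were WT with vehicle (WT-D), 3xTg with vehicle (3xTg-D), WT with the inhibitor (WT-S) and 3xTg with the inhibitor (3xTg-S). The comparisons ask whether the pathway differed between genotypes, and whether the infusion of the inhibitor changed it in either genotype.

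Reads on genes numbered 15413385 to 23590149 per mouse, and levels are given as CPM, the reads of a gene relative to all reads on genes in that mouse, scaled between libraries. The 8 neuron markers summed to between 6617 and 8304 CPM, and no marker of any cell type was at 0 in all mice. Thy1, whose regulatory element drives the transgenes, was at 560 ± 34.1 CPM in WT and 1866 ± 177 CPM in 3xTg mice (SD, n = 8 each), with all 8 3xTg mice above all WT mice. Markers of choroid plexus set WT-D mouse 4 (125.9 CPM in sum) and WT-S mouse 1 (63.2 CPM) apart from the other 14 mice (27.8 to 37.4 CPM). In 3xTg-D mouse 2 the 6 microglia markers reached 682.9 CPM and the 7 astrocyte markers 7439 CPM, the highest sums of any mouse, and the neuron markers were at their lowest, 6617 CPM. Each count of called genes was therefore also made without these 3 mice.

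The pathway's start sites were read first. RefSeq promoter entries, the 250 bases before a transcription start in build GRCm38.p6, were at hand for 23 of the 28 genes, with 29 windows; Stard4, Fdps, Npc1, Sqle and Fdft1 had no entry. On either strand, the letters TCACNCCAC, a form of the sterol response element that SREBP2 binds, occurred in 1 of the 29 windows (3.45%), against 346 of 32851 windows of all genes (1.05%). CCAAT, the letters of the NF-Y box, occurred in 21 (72.4%), against 33.8% of all windows, and GGGCGG, the letters of the Sp1 box, in 23 (79.3%), against 32.7%. These are matches of letters, not sites of binding. The promoters of 4 genes called between the genotypes are printed here, the first 3 from genes that were higher and the last from the one that was lower in 3xTg mice. Each is the part of the window that lies outside annotated exons, printed on the gene's own strand, with capitals for the letters of the 3 motifs or their reverse complements.
Hmgcs1, chr13:119690101-119690350, + strand: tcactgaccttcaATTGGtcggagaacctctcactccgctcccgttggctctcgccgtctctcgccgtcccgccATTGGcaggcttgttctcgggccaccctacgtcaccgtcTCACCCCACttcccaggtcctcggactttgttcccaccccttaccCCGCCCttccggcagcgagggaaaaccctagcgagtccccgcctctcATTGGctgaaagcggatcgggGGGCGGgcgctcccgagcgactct
Cyp51, chr5:4104747-4104947, - strand: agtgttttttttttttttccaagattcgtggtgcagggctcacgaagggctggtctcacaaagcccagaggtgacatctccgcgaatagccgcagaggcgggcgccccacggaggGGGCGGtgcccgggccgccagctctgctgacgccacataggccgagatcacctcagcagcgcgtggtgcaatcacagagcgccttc
Srebf2, chr15:82147019-82147180, + strand: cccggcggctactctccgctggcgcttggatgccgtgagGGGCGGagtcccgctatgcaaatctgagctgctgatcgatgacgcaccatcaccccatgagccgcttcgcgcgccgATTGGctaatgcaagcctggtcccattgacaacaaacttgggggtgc
Ggps1, chr13:14063490-14063603, - strand: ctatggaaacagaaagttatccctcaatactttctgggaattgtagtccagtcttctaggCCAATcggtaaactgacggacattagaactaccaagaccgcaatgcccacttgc

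In the Hmgcs1 promoter the TCACNCCAC match began 137 bases before the start. CCAAT letters lay on the opposite strand on either side of it, 237 and 176 bases before the start on one side and 45 on the other. Ggps1 had CCAAT letters 55 bases before its start and, in the part of its window not printed, 201 and 160 bases before it on the opposite strand. It had no GGGCGG letters in its window.

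Between genotypes, over both treatments, most of the pathway lay slightly higher in 3xTg mice. Of the 28 genes, 8 were higher (Hmgcs1, Cyp51, Fdft1, Sqle, Srebf2, Msmo1, Sc5d and Nsdhl) and 1 was lower (Ggps1) at p of 0.01 or less in edgeR's quasi-likelihood test of all 16 mice, the threshold for a DEG used throughout. Of all tested genes, 7.93% passed the same threshold, 3.9% higher and 4.04% lower. After Benjamini-Hochberg adjustment over all tested genes in edgeR, 6 of the 9 stayed at or under 0.05 (Ggps1, Hmgcs1, Cyp51, Fdft1, Sqle and Srebf2), where 4.97% of all tested genes did. The median log2 fold change of the 28 genes was 0.13, against 0.0084 over all tested genes, and 24 of the 28 (85.7%) had a positive value, against 53.2% of all tested genes. The differences were small, from a level 20.2% lower for Ggps1 to 26.3% higher for Hmgcs1. In bulk tissue, fewer cells of a type and less RNA per cell cannot be told apart, and the p-values measure the spread between these individual mice.

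**Figure D1:**
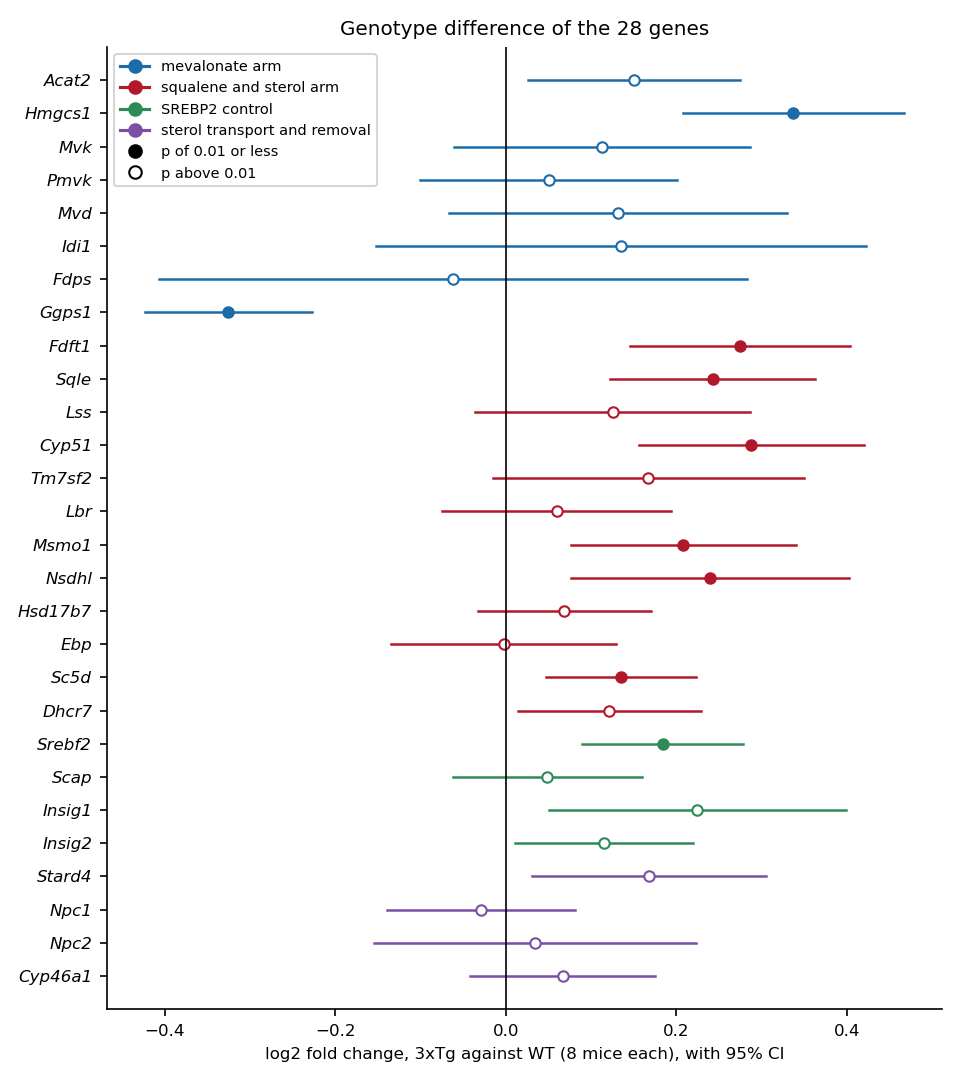
Log2 fold change of each of the 28 genes, 3xTg over WT (8 mice each, both treatments), with 95% confidence intervals from edgeR and genes ordered by role. Ggps1 stood alone at -0.33, Hmgcs1 was highest at 0.34, and 24 of the 28 points lay above 0.

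In the mevalonate arm, Hmgcs1 and Ggps1 moved in opposite directions. Hmgcs1 encodes the cytosolic HMG-CoA synthase, an early enzyme of the mevalonate arm; the gene lies at chr13:119690379-119708260 (GRCm38, + strand) and had the highest level of the 28 genes per length, 71.8 CPM per kb of exon. In the vehicle groups its level was 305.4, 300.0, 299.2 and 256.1 CPM in WT-D mice 1 to 4, and 414.0, 323.7, 404.5 and 344.0 CPM in 3xTg-D mice 1 to 4. In the inhibitor groups it was 310.9, 292.2, 285.0 and 283.4 CPM in WT-S, and 396.8, 390.7, 325.8 and 347.2 CPM in 3xTg-S. Every 3xTg mouse was above every WT mouse, and the lowest 3xTg mouse, 3xTg-D mouse 2, was close to the highest WT mouse. Over both treatments Hmgcs1 was 1.26-fold higher (log2 0.34 ± 0.061 SE, 95% interval 0.21 to 0.47, edgeR adjusted p = 0.00253). The antisense gene Gm48342 overlaps 557 bases of its exons.

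Ggps1 encodes geranylgeranyl diphosphate synthase, which draws farnesyl diphosphate away from sterols towards the lipid anchors of small GTPases. The gene lies at chr13:14050659-14063488 (GRCm38, - strand). In the vehicle groups its level was 80.05, 92.55, 89.33 and 83.29 CPM in WT-D, and 63.80, 68.13, 70.63 and 66.77 CPM in 3xTg-D. With the inhibitor it was 93.20, 84.83, 98.47 and 81.39 CPM in WT-S, and 74.23, 75.13, 70.65 and 72.13 CPM in 3xTg-S. All 8 3xTg mice lay below all 8 WT mice, so that Hmgcs1 and Ggps1 were the 2 genes whose genotypes did not overlap, 1 higher and 1 lower; of all tested genes 0.819% were separate and higher and 0.88% separate and lower. The log2 fold change was -0.33 ± 0.046 (SE; 95% interval -0.42 to -0.23; edgeR adjusted p = 0.000263), the smallest p of the 28 genes. Ggps1 shares 257 exon bases with Arid4b on the opposite strand, and Arid4b itself was at 116.3 CPM in both genotypes (log2 -0.00076, edgeR adjusted p = 0.998).

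Of the other 6 genes of this arm, none passed p of 0.01. Acat2, a cytosolic thiolase at the head of the pathway, ranged from 18.3 to 25.2 CPM (median 21.8) in WT and from 21.5 to 26.7 CPM (median 24.4) in 3xTg mice, so that the genotypes overlapped (log2 0.15, 95% interval 0.03 to 0.27, edgeR adjusted p = 0.199). The kinases Mvk and Pmvk, the decarboxylase Mvd and the isomerase Idi1 had log2 values of 0.11, 0.05, 0.13 and 0.14, and Fdps, which makes farnesyl diphosphate, had -0.06. Fdps (457 reads over all mice) and Idi1 (1128 reads) were the most sparsely counted of the 28. Of the 50-base stretches of Fdps transcripts, 64.1% recur in 8 other genes, 7 of them pseudogenes with 35 reads in total. Most of that share lies in the protein-coding gene Gm43738 (57.3% of the stretches), which overlaps 1124 exon bases of Fdps on the same strand. The level of Fdps may thus be split by the counting, and its log2 value is uncertain for the same reason. The share of recurring stretches was 40.7% for Acat2, shared with Acat3, and 28.6% for Idi1.

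The squalene and sterol arm held 6 of the 8 genes that were higher in 3xTg mice. Of its 12 genes, 6 passed p of 0.01, all higher, 11 had a positive log2 fold change, and the median was 0.15. Fdft1 (squalene synthase, the first enzyme committed to sterols; chr14:63145150-63179578) was at 71.09, 68.68, 76.22 and 63.32 CPM in WT-D, and at 87.70, 70.40, 96.64 and 81.60 CPM in 3xTg-D. It was at 67.28, 68.77, 67.52 and 66.42 CPM in WT-S, and at 88.75, 85.19, 81.82 and 72.83 CPM in 3xTg-S. The inhibitor groups did not overlap, whereas in the vehicle groups 3xTg-D mouse 2 lay within the WT-D range. Over both treatments Fdft1 was 1.21-fold higher (log2 0.28 ± 0.061 SE, edgeR adjusted p = 0.0115). Fdft1 and Ctsb overlap on opposite strands over 774 exon bases, and Ctsb had a log2 fold change of -0.01 (edgeR adjusted p = 0.951). Of the 50-base stretches of Fdft1 transcripts, 30.7% recur in 2 other genes. Ctsb holds 19.9% of the stretches, and the other gene is a pseudogene with 20 reads in total.

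Sqle encodes squalene epoxidase, a rate-limiting oxygen-dependent step, and lies at chr15:59315077-59331192. Its level was 64.93, 59.89, 65.46 and 61.48 CPM in WT-D, and 80.23, 60.29, 85.07 and 73.97 CPM in 3xTg-D. With the inhibitor the values were 63.71, 63.53, 61.43 and 64.74 CPM in WT-S, and 77.10, 76.32, 70.77 and 74.13 CPM in 3xTg-S. Apart from 3xTg-D mouse 2, every 3xTg mouse exceeded every WT mouse. The fold was 1.18 (log2 0.24 ± 0.057 SE, edgeR adjusted p = 0.0169).

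Cyp51, the lanosterol demethylase, lies at chr5:4081145-4104746 and is the first enzyme after the sterol ring is closed. It was at 69.87, 67.34, 74.52 and 65.57 CPM in WT-D, and at 93.91, 78.20, 95.79 and 77.68 CPM in 3xTg-D. The WT-S mice had 71.56, 63.17, 82.65 and 72.88 CPM, and the 3xTg-S mice 89.01, 94.21, 82.72 and 81.26 CPM. The vehicle groups did not overlap, and 1 high mouse, WT-S mouse 3, lay within the 3xTg-S range. The difference over both treatments was 1.22-fold (log2 0.29 ± 0.062 SE, edgeR adjusted p = 0.00995). Its neighbour Akap9, which shares 166 exon bases with it on the opposite strand, had a log2 fold change of -0.06 (edgeR adjusted p = 0.857).

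Msmo1, Nsdhl and Sc5d, which act on the later sterol intermediates (a methyl sterol oxidase, a sterol dehydrogenase and a desaturase), passed p of 0.01 but not the adjusted threshold. Msmo1 (chr8:64718139-64733792) ranged from 91.3 to 108.6 CPM (median 104.7) in WT and from 104.9 to 139.3 CPM (median 116.3) in 3xTg mice (log2 0.21 ± 0.062 SE, edgeR adjusted p = 0.0701). Nsdhl (chrX:72918557-72958514) ranged from 16.8 to 23.1 CPM (median 20.6) and from 20.3 to 26.6 CPM (median 24.6), with a log2 value of 0.24 ± 0.077 SE (edgeR adjusted p = 0.0958). Sc5d (chr9:42251595-42264256) ranged from 93.1 to 109.6 CPM (median 97.3) and from 101.4 to 115.6 CPM (median 109), with 0.13 ± 0.042 SE (edgeR adjusted p = 0.0793). In all 3 the genotypes overlapped, and 6, 5 and 4 of the 8 3xTg mice, respectively, lay above every WT mouse. Their calls were the least firm: Msmo1 fell short of p of 0.01 when any 1 of 5 mice was left out (WT-D 4, 3xTg-D 3, WT-S 4, 3xTg-S 1 or 3xTg-S 2), Nsdhl with any 1 of 9 and Sc5d with any 1 of 10. Their log2 values stayed between 0.17 and 0.22, 0.18 and 0.27, and 0.11 and 0.16 across all alternatives, so that the size of the difference held while the call did not.

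The other 6 genes of the arm did not pass. The reductases Tm7sf2, Lbr, Hsd17b7 and Dhcr7 had log2 values of 0.17, 0.06, 0.07 and 0.12, the cyclase Lss had 0.13, and the isomerase Ebp had -0.0026. Dhcr7, which makes cholesterol itself in the last step of a branch, ranged from 17.8 to 21.9 CPM in WT and from 20.3 to 23.7 CPM in 3xTg mice (edgeR adjusted p = 0.238). Tm7sf2 shares 19.5% of its 50-base stretches with its neighbour Vps51.

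**Figure D2:**
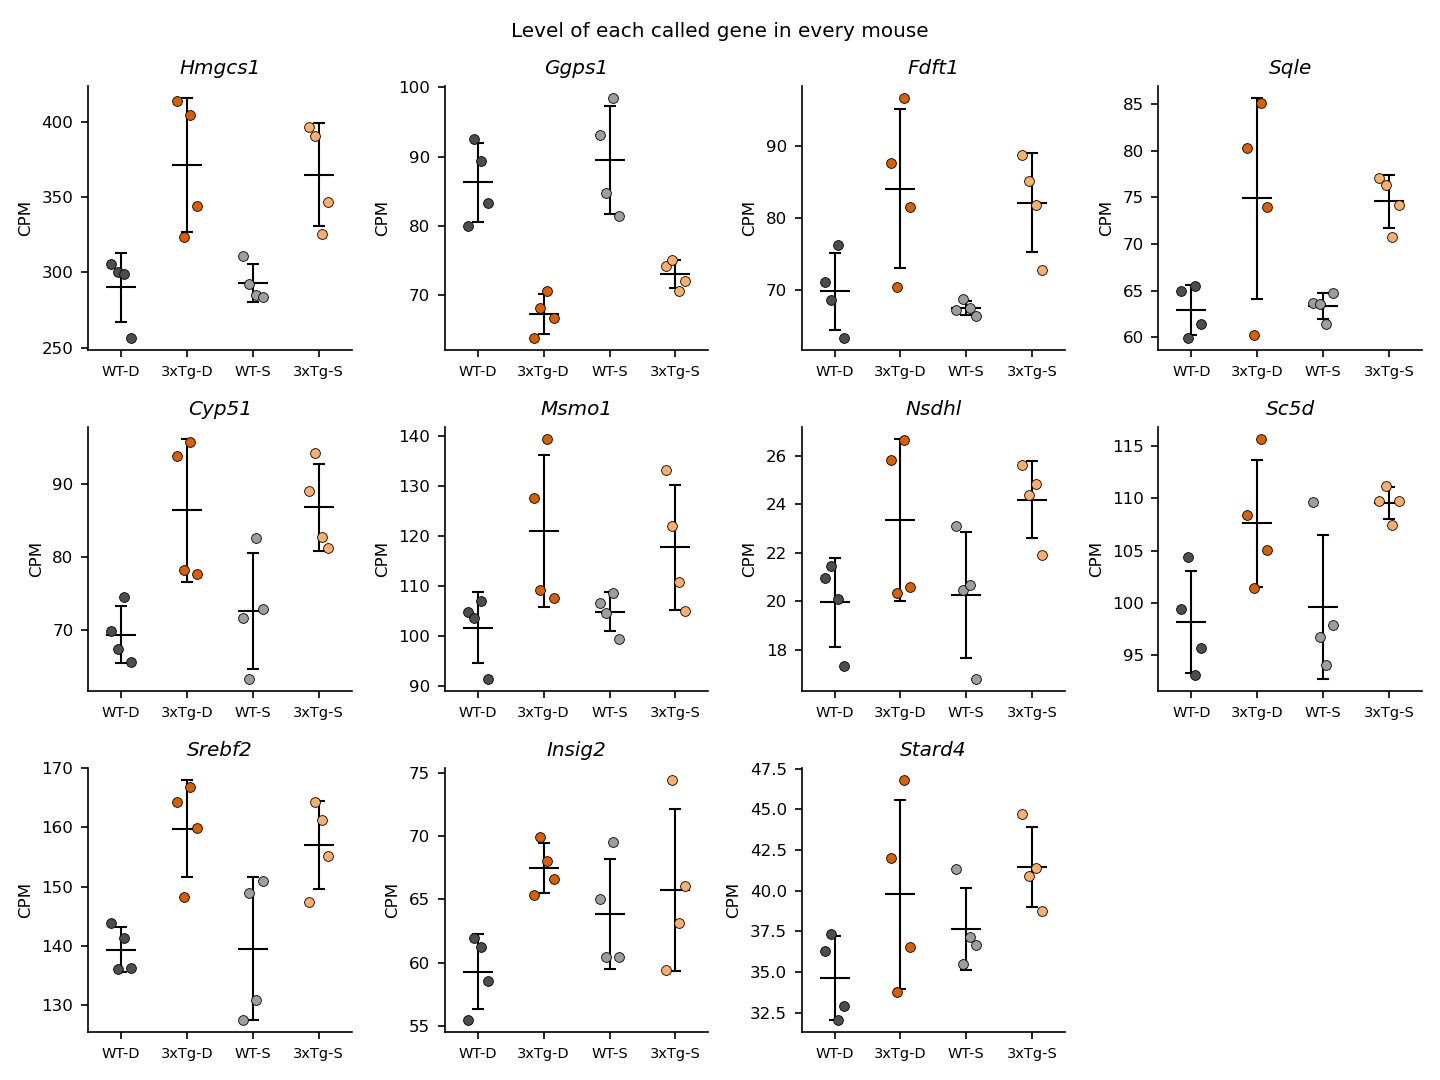
Level (CPM) of the 11 genes called in at least 1 comparison in every mouse of the 4 groups, with the mean and SD of each group; vertical axes do not start at 0 and differ between panels. The 3xTg-D and 3xTg-S points of Hmgcs1 lay above all WT points, those of Ggps1 below them, and 3xTg-D mouse 2 was the lowest of its group for Hmgcs1, Fdft1, Sqle and Srebf2.

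Of the SREBP2 control genes, Srebf2 itself was higher. Srebf2 (chr15:82147181-82205379) was at 143.9, 136.1, 141.3 and 136.2 CPM in WT-D, and at 164.2, 148.3, 166.8 and 159.9 CPM in 3xTg-D. In the inhibitor groups it was at 127.4, 148.9, 130.9 and 151.0 CPM in WT-S, and at 147.5, 164.3, 161.3 and 155.2 CPM in 3xTg-S. The vehicle groups were separate, and in the inhibitor groups 3xTg-S mouse 1 lay within the WT-S range. The fold over both treatments was 1.14 (log2 0.18 ± 0.045 SE, edgeR adjusted p = 0.0209).

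Insig1, itself a target of SREBP2, ranged from 40.4 to 51.5 CPM (median 45.0) in WT and from 44.1 to 66.3 CPM (median 52.8) in 3xTg mice, overlapping widely (log2 0.22, edgeR adjusted p = 0.158). It passed p of 0.01 without 3xTg-D mouse 2, 3xTg-D mouse 4 or WT-S mouse 2, and its log2 value stayed between 0.17 and 0.26 across the alternatives. Insig2 had a log2 value of 0.12 (95% interval 0.01 to 0.22) and Scap 0.05 (-0.06 to 0.16), with edgeR adjusted p of 0.252 and 0.772.

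None of the 4 transport and removal genes passed in this comparison. Stard4, a carrier of cholesterol through the cytosol, ranged from 32.0 to 41.3 CPM (median 36.5) in WT and from 33.8 to 46.8 CPM (median 41.2) in 3xTg mice (log2 0.17, edgeR adjusted p = 0.188), and it passed p of 0.01 without 3xTg-D mouse 2. The lysosomal pair Npc1 and Npc2, which hand cholesterol out of the lysosome, had log2 values of -0.03 and 0.03, and Cyp46a1 had 0.07 (edgeR adjusted p = 0.628).

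Markers of other cell types were set beside these values. In the genotype comparison 0 of 8 mature oligodendrocyte, 0 of 7 astrocyte, 0 of 6 microglia and 0 of 8 neuron markers passed p of 0.01 in edgeR. The astrocyte markers had a median log2 fold change of 0.13, the same size as that of the 28 genes, the microglia markers 0.19 and the oligodendrocyte markers 0.018. Of the other lists, 1 of 4 oligodendrocyte precursor markers was called higher (Gpr17, median of the list -0.11), and 2 of 4 ependyma markers (median -0.47) and 2 of 6 tested choroid plexus markers (median -1.88) were called lower, whereas 0 of 4 endothelium markers were called (median -0.12). The choroid plexus sum was high in 2 WT mice, WT-D mouse 4 (125.9 CPM) and WT-S mouse 1 (63.2 CPM). All other mice of both genotypes were at 27.8 to 37.4 CPM. The part of cell composition in the gene differences was not tested. Without the 3 mice that marker sums set apart, a setting chosen after seeing the data, 9 of the 28 genes were again called, 8 of them shared; Msmo1 fell out and Stard4 came in.

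With the 2 treatments apart, the same question was asked in groups of 4. In vehicle-treated mice, 4 of the 28 genes were higher in 3xTg-D than in WT-D (Hmgcs1, Cyp51, Srebf2 and Insig2) and 1 was lower (Ggps1), against 4.91% of all tested genes called in this comparison, 2.44% higher and 2.47% lower. The median log2 fold change was 0.18, against -4.3e-05 over all tested genes. Only Ggps1 passed the adjusted threshold, as did 1.85% of all tested genes (log2 -0.36 ± 0.059 SE, edgeR adjusted p = 0.0130). The log2 values of Hmgcs1, Cyp51 and Srebf2 were 0.36, 0.32 and 0.20, with edgeR adjusted p of 0.0874, 0.0915 and 0.101. Insig2 (chr1:121304353-121332589) was at 55.42, 61.96, 61.20 and 58.52 CPM in WT-D and at 65.39, 69.93, 68.03 and 66.61 CPM in 3xTg-D, groups that did not overlap (log2 0.19 ± 0.052 SE, edgeR adjusted p = 0.124). Groups did not overlap for 7 of the 28 genes, the 5 called genes with Acat2 and Msmo1, 6 of them higher and 1 lower; 4.39% of all tested genes were separate and higher and 3.78% separate and lower.

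The count in vehicle-treated mice rested on single animals: it was 2 without WT-D mouse 4, 3 without 3xTg-D mouse 3, and 10 without 3xTg-D mouse 2. Without WT-D mouse 4 and 3xTg-D mouse 2 together, as set apart by marker sums, it was 6, of which 4 were shared. WT-D mouse 4 had the lowest Hmgcs1 of any mouse. Mature oligodendrocyte markers moved with this comparison: their summed level was 2977 to 3488 CPM in WT-D and 3726 to 4095 CPM in 3xTg-D, and 2 of 8 were called, both higher (Mobp among them, log2 0.39). The 7 astrocyte markers summed to 5285 to 5853 CPM in WT-D and 5543 to 7439 CPM in 3xTg-D, with none called and a median log2 fold change of 0.19. The 6 microglia markers, at 318 to 522 CPM in WT-D and 376 to 683 CPM in 3xTg-D, were all positive (median 0.33) with none called, and 1 of 4 ependyma markers (median -0.23) and 1 of 6 choroid plexus markers (median -1.96) were called lower. The choroid plexus sum was 125.9 CPM in WT-D mouse 4, 30.2, 35.4 and 31.3 CPM in the other WT-D mice and 29.2 to 37.4 CPM in 3xTg-D. The part of these markers in the result was not tested.

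In inhibitor-treated mice, 3 genes were higher in 3xTg-S than in WT-S (Hmgcs1, Fdft1 and Sqle) and 1 was lower (Ggps1), against 4.26% of all tested genes, 1.79% higher and 2.47% lower. None of the 28 passed the adjusted threshold, where 1.4% of all tested genes did. The median log2 fold change was 0.083, against 0.0019 over all tested genes. Their log2 values were 0.30 for Hmgcs1 (edgeR adjusted p = 0.135), 0.27 for Fdft1 (adjusted p = 0.151), 0.22 for Sqle (adjusted p = 0.161) and -0.31 for Ggps1 (adjusted p = 0.103). These 4 were also the genes whose groups did not overlap, where 3.22% of all tested genes were separate and higher and 3.53% separate and lower. Oligodendrocyte markers overlapped here, at 2298 to 3641 CPM in WT-S and 2673 to 4242 CPM in 3xTg-S, with 0 of 8 called. Ependyma markers moved with this comparison: they summed to 15.7 to 24.2 CPM in WT-S and 9.99 to 11.4 CPM in 3xTg-S, and 3 of 4 were called lower (median -0.75). In the other lists, 1 of 4 oligodendrocyte precursor markers was called higher, the only positive one of its list (median -0.11). None of the 6 choroid plexus markers was called (median -1.71). Their sum was 63.2 CPM in WT-S mouse 1, 27.8, 28.5 and 34.7 CPM in the other WT-S mice and 30.4 to 34.7 CPM in 3xTg-S. The part of these markers in the result was not tested here either. The count was 1 without 3xTg-S mouse 1 and 2 without WT-S mouse 1, WT-S mouse 3, WT-S mouse 4 or 3xTg-S mouse 2, of which WT-S mouse 1 is the one set apart by marker sums.

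Insig2, which was called in vehicle-treated mice, had a log2 value of 0.03 between WT-S and 3xTg-S, and it ranged from 60.4 to 69.5 CPM in WT-S and from 59.4 to 74.5 CPM in 3xTg-S. The difference between the genotype effects with and without the inhibitor, tested as an interaction, was -0.14 (95% interval -0.35 to 0.06, edgeR adjusted p = 0.788), and was not shown. For Hmgcs1 the same difference was -0.04 (-0.30 to 0.22), for Ggps1 0.06 (-0.13 to 0.26) and for Sqle -0.01 (-0.25 to 0.23). In the interaction test 0 of the 28 genes passed p of 0.01 and 0 had an unadjusted p under 0.05 in edgeR, and 0 were called by DESeq2's likelihood ratio test, against 0.595% of all tested genes called and 4.98% under 0.05 in edgeR. Its smallest p belonged to Acat2 (log2 -0.19, interval -0.44 to 0.06, edgeR adjusted p = 0.788), followed by Pmvk (-0.22, -0.52 to 0.08) and Insig2. The intervals reached a median of 0.26 to either side, so that for a typical gene a change of the genotype effect of about that size could have been missed.

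**Figure D3:**
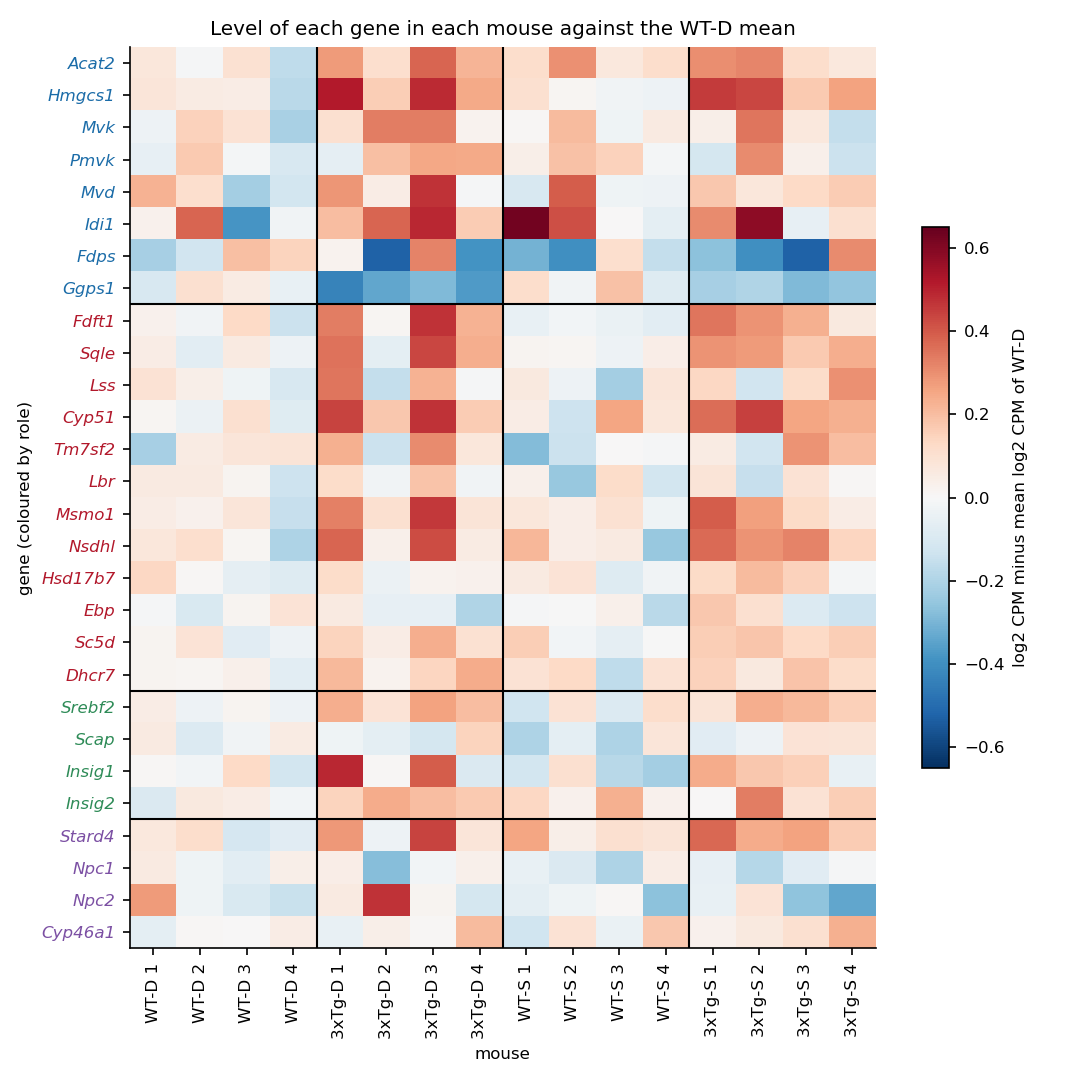
Log2 difference of each of the 28 genes (rows, by role) in each of the 16 mice (columns, by group) from the mean of WT-D. The differences shown run from -0.53 to 0.63. In the 20 synthesis genes, 12 to 18 per 3xTg-D mouse and 15 to 17 per 3xTg-S mouse were above the WT-D mean, against 6 to 15 per WT-S mouse. In the WT-D mice themselves it was 14 in each of mice 1, 2 and 3 and 3 in mouse 4. Ggps1 was below the WT-D mean in all 8 3xTg mice.

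Mouse by mouse, the synthesis enzymes were described by their mean log2 difference from the WT-D mean. It ran from -0.08 to 0.05 in WT-D, from 0.016 to 0.29 in 3xTg-D, from -0.03 to 0.05 in WT-S and from 0.08 to 0.17 in 3xTg-S. The lowest 3xTg-D value belonged to mouse 2 and the highest to mouse 3, so that 3xTg-D was the group with the widest spread. The summed level of the 12 squalene and sterol genes was 503 to 549 CPM in WT-D, 548 to 684 CPM in 3xTg-D, 530 to 558 CPM in WT-S and 588 to 647 CPM in 3xTg-S.

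The inhibitor was not seen to move the pathway in either genotype. Between WT-D and WT-S, 0 of the 28 genes passed p of 0.01 in edgeR, 0 had an unadjusted p under 0.05, and 0 were called by DESeq2; of all tested genes 0.188% were called and 2.25% had an unadjusted p under 0.05 in edgeR. Between 3xTg-D and 3xTg-S the same 3 counts were 0, 0 and 0, against 0.904% of all tested genes called and 6.33% under 0.05 in edgeR. With both genotypes together they were 0, 0 and 0 again, against 0.88% and 4.68%. Without the mice set apart by marker sums each count of called genes was again 0 in edgeR. With same-numbered mice treated as a block, 1 of the 28 genes was called between 3xTg-D and 3xTg-S. It was Npc2, lower with the inhibitor, and 6.88% of all tested genes were called in that fit. The median log2 fold change of the 28 genes was 0.018 in WT, -0.025 in 3xTg and -0.0019 over both, against -7.8e-05, 0.0069 and 0.0069 over all tested genes. Cell type markers did move between 3xTg-D and 3xTg-S: all 8 mature oligodendrocyte markers had negative values (median -0.36, 2 called), as had all 6 microglia markers (median -0.35, 0 called), all 7 astrocyte markers (median -0.18, 0 called) and all 4 ependyma markers (median -0.69, 3 called). Between WT-D and WT-S 0 markers were called and 2 had an unadjusted p under 0.05 in edgeR. How far these differences bear on the values of the 28 genes was not tested.

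The intervals bound what the inhibitor may have done. Over both genotypes the log2 fold change was -0.01 for Hmgcs1 (95% interval -0.14 to 0.12), 0.00 for Sqle (-0.12 to 0.12), 0.04 for Cyp51 (-0.09 to 0.17), -0.04 for Fdft1 (-0.17 to 0.09) and -0.01 for Srebf2 (-0.11 to 0.08). Of these, none of the intervals reached the size of that gene's own genotype difference. The smallest p over both genotypes belonged to Npc2 (log2 -0.17, interval -0.36 to 0.02), Ggps1 (0.08, -0.01 to 0.18) and Stard4 (0.09, -0.05 to 0.23), each with an edgeR adjusted p of 0.999.

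In WT mice the smallest p were those of Acat2 (log2 0.15, interval -0.04 to 0.33), Insig2 (0.11, -0.04 to 0.26) and Stard4 (0.12, -0.05 to 0.29). In 3xTg mice they were those of Ggps1 (0.12, interval -0.01 to 0.25, edgeR adjusted p = 0.722), Npc2 (-0.26, -0.55 to 0.04) and Hsd17b7 (0.09). Ggps1 was the only one of the 28 whose 3xTg-D and 3xTg-S mice did not overlap, at 63.80 to 70.63 CPM with vehicle and 70.65 to 75.13 CPM with the inhibitor, where 1.4% of all tested genes were separate and higher and 1.76% separate and lower. All 8 of these mice stayed below the lowest WT mouse, at 80.05 CPM. Npc2 rested on 1 high mouse, 3xTg-D mouse 2 with 70.27 CPM, beside 52.86, 51.37 and 46.88 CPM in the others of its group and 49.05, 54.00, 42.39 and 40.17 CPM in 3xTg-S. The 95% intervals reached a median of 0.18 to either side in WT and 0.22 in 3xTg mice. Changes of about that size or smaller could have been missed for a typical gene with 4 mice a group.

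**Figure D4:**
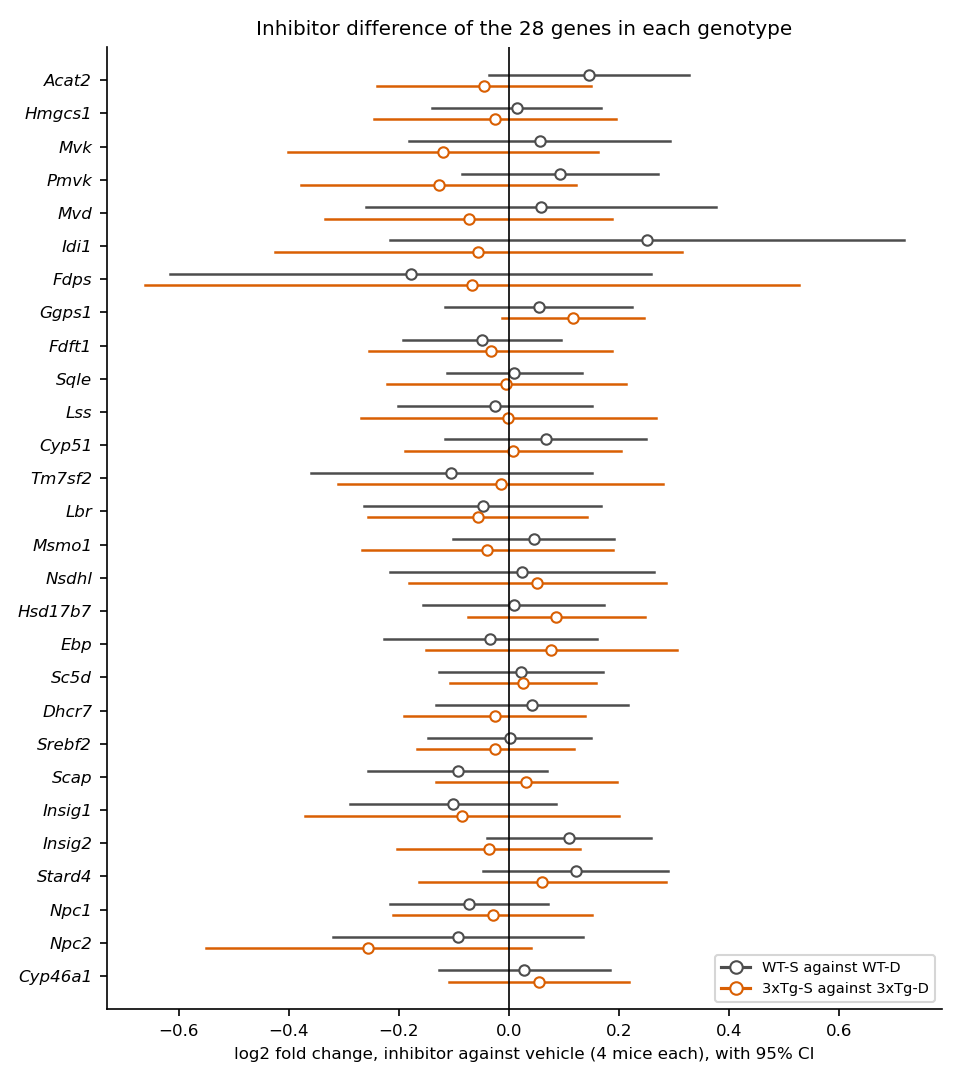
Log2 fold change of each of the 28 genes, inhibitor over vehicle, in WT and in 3xTg mice (4 mice a group), with 95% confidence intervals from edgeR. No gene passed p of 0.01 in either genotype, and the medians were 0.018 in WT and -0.025 in 3xTg mice.

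The 3xTg mice with the inhibitor were also compared with the vehicle-treated WT mice. Between WT-D and 3xTg-S, 4 of the 28 genes were higher (Cyp51, Sqle, Hmgcs1 and Stard4) and 1 was lower (Ggps1), against 5.69% of all tested genes, 2.26% higher and 3.43% lower. None passed the adjusted threshold in edgeR, where 1.58% of all tested genes did. This comparison shares the WT-D mice with the vehicle comparison and the 3xTg-S mice with the inhibitor comparison, so that its values are not independent of theirs. The log2 values were 0.31 for Cyp51 (edgeR adjusted p = 0.0583), 0.23 for Sqle (adjusted p = 0.0902), 0.31 for Hmgcs1 (adjusted p = 0.114) and -0.26 for Ggps1 (adjusted p = 0.0672). Stard4 (chr18:33199355-33213862) was at 36.29, 37.37, 32.03 and 32.89 CPM in WT-D and at 44.73, 40.93, 41.42 and 38.77 CPM in 3xTg-S, with no overlap (log2 0.24 ± 0.073 SE, edgeR adjusted p = 0.161). Groups did not overlap for 8 genes that were higher (Hmgcs1, Sqle, Cyp51, Nsdhl, Sc5d, Dhcr7, Srebf2 and Stard4) and 1 that was lower, where 5.13% of all tested genes were separate and higher and 4.42% separate and lower. The median of the 28 genes was 0.11, against -0.0045 over all tested genes. The count was 3 without WT-D mouse 4 or 3xTg-S mouse 1, and WT-D mouse 4 was the only one of these 8 mice set apart by marker sums. In the same comparison 2 of 8 mature oligodendrocyte markers (median -0.25), 3 of 4 ependyma markers (median -0.94) and 1 of 6 choroid plexus markers (median -2.31) were called lower. The choroid plexus sum was 125.9 CPM in WT-D mouse 4, 30.2, 35.4 and 31.3 CPM in the other WT-D mice and 30.4 to 34.7 CPM in 3xTg-S. Of 4 oligodendrocyte precursor markers 1 was called higher. The summed levels of that list overlapped, at 124.5 to 145.6 CPM in WT-D and 134.8 to 151.1 CPM in 3xTg-S. The part of these markers in the result was not tested.

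**Figure D5:**
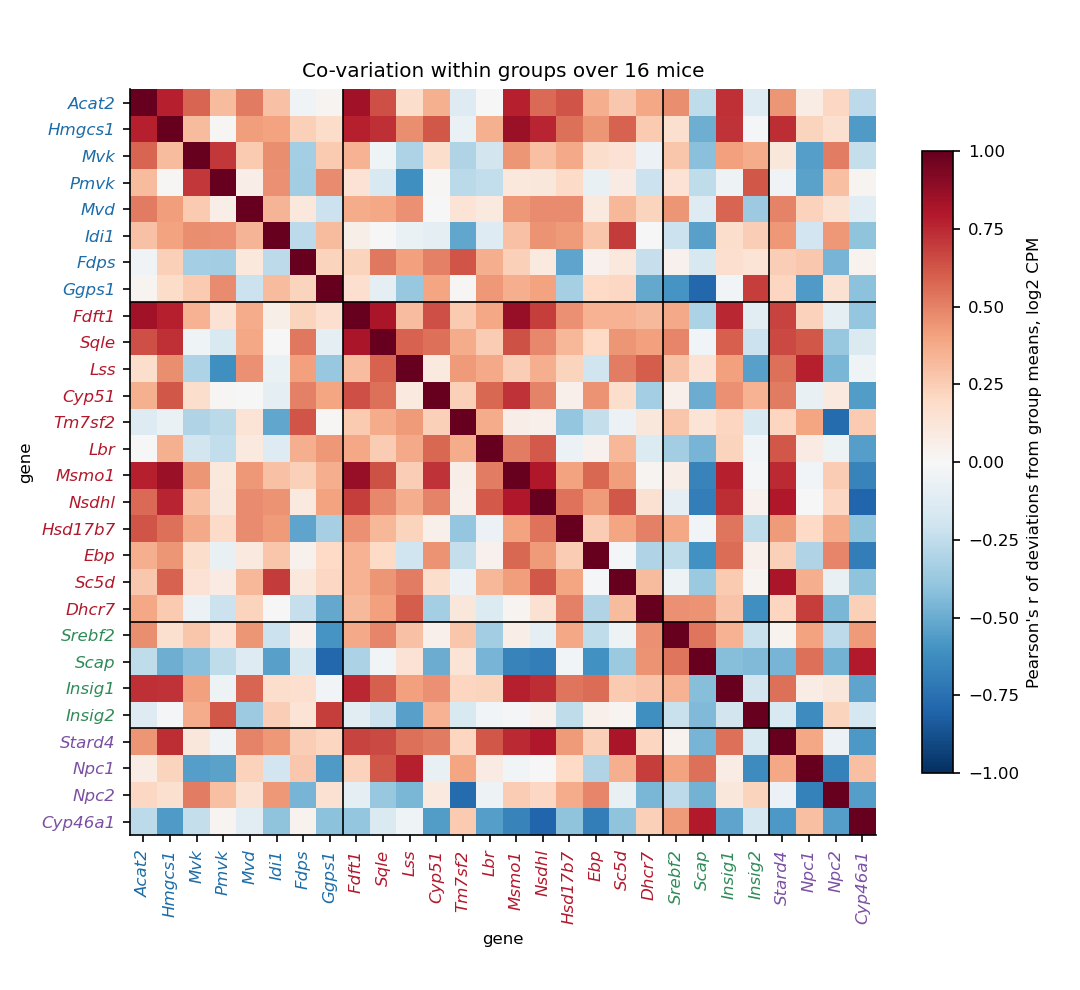
Pearson's r between each pair of the 28 genes over 16 mice, computed on the deviations of log2 CPM from the mean of each mouse's group, with genes ordered by role. Most pairs of synthesis genes were positive (median r 0.30), whereas Scap and Cyp46a1 ran mostly negative against the others (medians -0.37 and -0.39).

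Within groups, the synthesis genes tended to vary together from mouse to mouse. Over the 16 mice, on deviations from group means, the median r was 0.36 among the 66 pairs of the squalene and sterol arm, 0.28 among the 28 pairs of the mevalonate arm, 0.30 among the 190 pairs of synthesis genes and -0.0027 among all pairs of tested genes. The highest values were 0.87 for Fdft1 with Msmo1, 0.87 for Hmgcs1 with Msmo1, 0.84 for Acat2 with Fdft1 and 0.82 for Fdft1 with Sqle. Stard4 ran closest to Sc5d (0.82). The 4 SREBP2 control genes did not run together (median -0.20 over 6 pairs), nor did the 4 transport and removal genes (-0.30), and the lowest values were -0.79 for Nsdhl with Cyp46a1 and -0.78 for Ggps1 with Scap. All points share their libraries, depth and tissue composition, and these values are a description of 16 mice.

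Beyond the 28, 57 other genes of sterol and isoprenoid metabolism, SREBP processing and sterol handling were counted, of which 53 were tested. Over both treatments 2 of these were higher in 3xTg mice at p of 0.01 or less and none was lower, against 7.93% of all tested genes, with a median log2 fold change of 0.021 and 32 of 53 positive. Acly, which makes the acetyl-CoA that feeds both sterol and fatty acid synthesis, was at 152.7, 156.2, 151.5 and 156.6 CPM in WT-D and 172.9, 160.1, 183.3 and 180.4 CPM in 3xTg-D. It was at 157.7, 153.4, 136.2 and 152.6 CPM in WT-S and 172.0, 181.0, 174.3 and 167.0 CPM in 3xTg-S. All 8 3xTg mice were above all 8 WT mice (log2 0.19 ± 0.040 SE, edgeR adjusted p = 0.00721). Stard5, another sterol carrier, was at 10.2 ± 0.967 CPM in WT and 11.8 ± 0.750 CPM in 3xTg mice (SD, n = 8 each; edgeR adjusted p = 0.106).

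In the smaller comparisons, Acly was called between WT-D and 3xTg-D (log2 0.18, edgeR adjusted p = 0.165). It was the only one of the 53, where 4.91% of all tested genes were called. Between WT-S and 3xTg-S, 2 of the 53 were lower, where 2.47% of all tested genes were lower at the same threshold. Among the 2 was the liver X receptor gene Nr1h3, at 1.99 ± 0.213 against 1.32 ± 0.177 CPM (SD, n = 4), with log2 -0.61 (edgeR adjusted p = 0.230). Srebf1, the sister gene of Srebf2 that steers fatty acid synthesis, was lower in 3xTg-S than in WT-D (26.4 ± 1.75 against 33.6 ± 2.07 CPM, SD, n = 4; log2 -0.37, edgeR adjusted p = 0.0392). In that comparison 5.69% of all tested genes were called, 3.43% lower. None of the 53 passed p of 0.01 in the inhibitor comparisons or the interaction in edgeR, where 0.188% to 0.904% of all tested genes did.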

How the data were processed

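Hippocampal RNA from 16 individual mice was sequenced. The authors trimmed reads (Trimmomatic 0.35), aligned them to GRCm38 (STAR 2.5.1b) and deposited unnormalized counts per gene; the strand setting is not given in the sources used here. The 4 summary lines of the count table, 24.0 to 27.8% of reads per mouse, were left out. Genes were kept with edgeR's filterByExpr (minimum 10, total 15) and scaled by TMM. Each comparison of 2 groups was tested by edgeR 4.0.16's quasi-likelihood test (R 4.3.3) in a fit of those groups alone; the comparisons over both treatments or genotypes and the interaction came from 1 fit of all mice. DEGs had p of 0.01 or less, as in the study, and Benjamini-Hochberg values are given beside. Log2 CPM used a prior count of 2. DESeq2 1.42.0 and other settings served as alternatives. The procedure was tested on simulated data.

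Members and lists were chosen with earlier results of these data known. Genes called in any comparison, or with the 3 smallest p in one, were named with statistics; other pathway genes were named where called, unless not reported here. Mice with the same number in WT-D and WT-S deviated together (mean r 0.217, lowest 0.114). The mean r was of like size for 3xTg-D with 3xTg-S (0.213, lowest 0.0158) and WT-S with 3xTg-S (0.241, lowest -0.101). That pairing came from the data alone. With the replicate block 0 of the 28 genes were called between WT-D and WT-S, as without it. Between 3xTg-D and 3xTg-S 1 was called with the block, Npc2, where 6.88% of all tested genes were. Promoters came from RefSeq, and exon overlaps and lengths from Gencode M21, with the same coordinates for all 28 genes.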

Additional observations from a re-analysis of the deposited data

Results flagged for a closer look

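In 4 of the 112 sets of 4 mice (28 genes in 4 groups, 3.57%), 1 mouse stood apart from the other 3 by Dixon's test at the 95% level, where chance alone gives about 1 in 20. Hmgcs1 was at 256.1 CPM in WT-D mouse 4, below the nearest mouse of its group at 299.2 CPM, and this mouse was also the one with the highest choroid plexus markers. Mvd was at 12.3 CPM in WT-S mouse 2, above the nearest at 9.21 CPM. Tm7sf2 was at 6.72 CPM in WT-D mouse 1, below the nearest at 8.12 CPM. Dhcr7 was at 17.8 CPM in WT-S mouse 3, below the nearest at 21.4 CPM.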

How the results depend on the processing

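Over both treatments, Hmgcs1, Ggps1, Cyp51, Fdft1, Sqle and Srebf2 kept their call in 23 of 23 alternatives (other size factors, DESeq2, other filters, the replicate block, a covariate for reads outside genes, the mice set apart by marker sums, and 1 mouse left out in turn), with adjusted p up to 0.0691 (Srebf2) in edgeR or DESeq2, and the count of 9 ran from 6 to 11 as mice were left out. Counts of called genes moved by more than 1.5 times in the smaller comparisons, and the cause was not tested. For WT-D vs 3xTg-D (5 genes), the count was 9 with no filter, 9 with the replicate block and 1 at the adjusted threshold, and 2 to 10 as mice were left out. For WT-S vs 3xTg-S (4 genes) it was 2 without the mice set apart, 0 at the adjusted threshold and 1 to 3 as mice were left out. For WT-D vs 3xTg-S (5 genes) it was 8 with the covariate, 3 without those mice, 0 at the adjusted threshold and 3 to 7 as mice were left out. For 3xTg-D vs 3xTg-S (0 genes) it was 1 with the replicate block, Npc2. Same-numbered mice deviated together in part in the other pairs of groups too. Their mean r ran from 0.0414 (WT-D with 3xTg-D) to 0.241 (WT-S with 3xTg-S). The block moved the DEGs among all tested genes from 702 to 1339 for WT-S vs 3xTg-S and from 149 to 1133 for 3xTg-D vs 3xTg-S. At the adjusted threshold these 2 counts moved from 230 to 517 and from 0 to 204. The block moved the DEGs from 31 to 115 for WT-D vs WT-S, and changed no other count of the 28 genes by more than 1.5 times. Values near 0 changed sign in the genotype comparison: Ebp to 4.8e-05 with the covariate and 0.0040 without the mice set apart, Npc1 to 0.0038 and Npc2 to -0.067 without those mice. With 1 mouse left out, Ebp ran from -0.039 to 0.011, Npc2 from -0.047 to 0.085 and Pmvk from -0.018 to 0.083. With 4 mice a group, the 95% intervals of the inhibitor effect reached a median of 0.18 on the log2 scale to either side in WT and 0.22 in 3xTg mice, and this spread limited what could be detected.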
